A study of Arabidopsis thaliana with 10 samples.

Results

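SAUR genes (Small Auxin Up RNA) form a large plant family of short, intronless genes that are among the fastest to respond to auxin. Followed here in Arabidopsis thaliana seedlings were 9 of them, from 2 tandem clusters: SAUR19 to SAUR24 (AT5G18010, AT5G18020, AT5G18030, AT5G18050, AT5G18060 and AT5G18080) on chromosome 5, and SAUR14, SAUR15 and SAUR16 (AT4G38840, AT4G38850 and AT4G38860) on chromosome 4. They are 9 of the 33602 genes counted and of the 79 genes annotated as SAUR family members. They were taken by locus, but were selected on their measured counts in these libraries, being low both in dal-2 and in Dex-grown DIF-OX2, so their own values are given as a description without p-values. Counts of calls among them stand beside the share over all genes, and nothing is read from them in any comparison. All 9 had enough counts to be fitted, as had 45 of the 70 other SAUR genes.

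SAUR proteins of this kind are best known from elongating hypocotyls and expanding leaves. They bind and inhibit PP2C.D phosphatases, which otherwise dephosphorylate plasma membrane H+-ATPases, so that more proton pumping acidifies the cell wall and lets it loosen. Auxin, brassinosteroid and warmth raise their transcripts, in part through ARF, BZR1 and PIF transcription factors. The SAUR19 to SAUR24 proteins are near copies of each other, and SAUR15, also called SAUR-AC1, is a much used auxin response gene.

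Whole seedlings with 4 open true leaves were sequenced in 5 groups of 2 libraries, all in the Col-0 ecotype and grown on sucrose medium in long days. The groups were DIF-OX2 on 10 µM dexamethasone (Dex, a synthetic glucocorticoid), dal-2 without Dex, DIF-OX2 without Dex, Dex-grown Col-0 and Col-0 without Dex. Every medium held 0.1% ethanol, the solvent of Dex. DIF-OX2 and Col-0 seedlings were 12 days old, while the dal-2 plants were 20 days (replicate 1) and 21 days (replicate 2), so in dal-2 genotype and age cannot be told apart. The title of the study places DIF in an SCF ubiquitin ligase that degrades DAL (DIFFERENTIATION AND GREENING-LIKE, AT2G33430), a plastid RNA editing factor. DIF-OX2 is 1 named line, and the promoter of its transgene and the locus of DIF are not given in the sources used here. Whether Dex raised DIF was therefore not checked.

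Libraries held 8805568 to 16556322 counts, and 1 count equalled 0.0555 to 0.111 CPM (counts scaled to library size by TMM). DAL transcript stood at 72.6 and 59.3 CPM in Dex-grown DIF-OX2, 29.5 and 35.7 in dal-2, 92.6 and 95.6 in DIF-OX2 without Dex, 99.6 and 115 in Dex-grown Col-0, and 97.9 and 107 in Col-0. The SD of the log2 difference between replicates was 0.745 in dal-2 and 0.355 to 0.439 in the other groups. The labels do not state whether replicates are separate cultures, so tests measure only the spread between these libraries. This spread may be technical outside dal-2, whose replicates differed in age. In whole seedlings, fewer cells that express a gene and less RNA per cell cannot be told apart.

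Upstream sequences are shown with growth-related motifs marked, and whether these motifs bear on the levels of the genes was not tested. RefSeq (TAIR10.1) places the chromosome 5 cluster at chr5:5962773-5984308, a stretch of 21.5 kb, and the chromosome 4 cluster at chr4:18124978-18131284, a stretch of 6.31 kb. The transcript used for each gene has 1 exon, and the proteins have 88 to 105 residues. SAUR14 and SAUR15 are divergent, with 497 bases between their starts, as are SAUR22 and SAUR23, with 692 bases between theirs. Of the 9 genes, SAUR22 (minus strand, chr5:5975088-5975337) and SAUR15 (plus strand, chr4:18125807-18126056) hold both TGTCTC, the auxin response element bound by ARF factors, and CACATG, a box bound by PIF factors, within 250 bases upstream of the annotated start. Both strands were searched, and capitals mark these motifs as read on the gene's strand, so TGTCTC appears as GAGACA and CACATG as CATGTG.
SAUR22: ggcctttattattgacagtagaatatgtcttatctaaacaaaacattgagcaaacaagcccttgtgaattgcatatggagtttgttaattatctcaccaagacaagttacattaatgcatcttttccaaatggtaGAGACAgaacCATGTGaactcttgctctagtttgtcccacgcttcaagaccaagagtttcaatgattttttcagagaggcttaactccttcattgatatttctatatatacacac
SAUR15: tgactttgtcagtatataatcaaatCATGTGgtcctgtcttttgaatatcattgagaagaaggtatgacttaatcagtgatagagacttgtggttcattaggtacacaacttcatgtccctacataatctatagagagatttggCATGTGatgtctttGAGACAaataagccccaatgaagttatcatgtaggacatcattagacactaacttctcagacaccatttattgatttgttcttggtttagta

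CACATG was found upstream of 5 of the 9 genes (SAUR19, SAUR21, SAUR22, SAUR14 and SAUR15), of 27 of the 70 other SAUR genes and of 10.8% of all 32834 upstream regions of this length. TGTCTC was found upstream of SAUR20, SAUR22 and SAUR15, of 4 of 70 other SAUR genes and of 10.8% of all regions. CGTGTG and CGTGCG, the forms of the element bound by the brassinosteroid factor BZR1, were in none of the 9, in 3 and 2 of the 70, and in 5.08% and 1.46% of all regions; either can overlap the G-box. The G-box CACGTG and the variant auxin element TGTCGG were in none of the 9, in 1 and 2 of the 70, and in 5.84% and 4.18% of all regions. TATAAA was in 1 of 9 (SAUR16), 40 of 70 and 45.8% of all regions. These are matches of letters, not shown to be bound.

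A 44-base window around the TGTCTC match of SAUR22 is set beside its closest ungapped match in the other genes of the chromosome 5 cluster, since the auxin and PIF motifs lie side by side in it. The window ends 92 bases upstream of the start in SAUR22 (chr5:5975179-5975222, minus strand), and capitals mark TGTCTC and CACATG on either strand as above.
SAUR22: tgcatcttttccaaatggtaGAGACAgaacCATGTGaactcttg
SAUR19: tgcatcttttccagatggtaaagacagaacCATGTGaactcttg
SAUR20: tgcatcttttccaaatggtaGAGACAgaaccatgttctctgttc
SAUR21: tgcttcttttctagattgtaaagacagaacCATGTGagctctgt
SAUR24: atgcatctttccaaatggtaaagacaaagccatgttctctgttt
SAUR23: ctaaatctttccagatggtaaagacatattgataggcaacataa
The same base as in SAUR22 stood at 42 of the 44 positions in SAUR19 (chr5:5963515-5963558, minus strand), 39 in SAUR20 (chr5:5966787-5966830, minus strand), 36 in SAUR21 (chr5:5968280-5968323, plus strand), 29 in SAUR24 (chr5:5983588-5983631, plus strand) and 24 in SAUR23 (chr5:5975582-5975625, plus strand). SAUR23 and SAUR24 held neither capital motif in their windows.

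Coding sequences of the 6 chromosome 5 genes were 87.7% to 95.2% identical (median 91.2%), those of the 3 chromosome 4 genes 54.4% to 62.4%, and identity between the clusters was 54.8% to 73.9%. Reads can therefore be hard to assign within the chromosome 5 cluster, and how the authors treated reads with several alignments is not stated. Of the 50-base windows of the exon, 18.5% occurred again in the genome for SAUR19, 7.11% for SAUR24, 5.83% for SAUR20, 5.19% for SAUR21, 2.63% for SAUR23 and 0.573% for SAUR22. None did for the chromosome 4 genes, and no 100-base window recurred for any of the 9. The summed level of each cluster is given below beside single genes for this reason.

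Against Dex-grown Col-0, all 9 genes were lower in Dex-grown DIF-OX2, and the libraries of the groups did not overlap for any of them. Over all tested genes 34.1% were lower without overlap. The median log2 fold change was −1.86, with −1.98 on chromosome 5 and −1.0 on chromosome 4, against 0.01 over all 20681 genes. With the quasi-likelihood test of edgeR (adjusted p under 0.05 over all genes), 7 of the 9 were called lower, against 10.4% of all tested genes called lower and 11.6% called higher. With 1 library of these groups left out in turn, the median of the 9 genes was −2.12 to −1.58. Fewer of the 9 were called each time, as were fewer of all tested genes.

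SAUR22 and SAUR23, a divergent pair, stood lowest relative to Dex-grown Col-0. SAUR22 had 0.215 and 0.182 CPM in Dex-grown DIF-OX2 (2 and 3 counts), against 2.66 and 1.70 CPM in Dex-grown Col-0 (28 and 25 counts). Its log2 fold change was −3.40 (SE 0.777). SAUR23 had 0.323 and 0.243 CPM (3 and 4 counts), against 3.51 and 2.11 CPM (37 and 31 counts), a log2 fold change of −3.29 (SE 0.468). Both genes rest on few counts in Dex-grown DIF-OX2, and their SEs are wide.

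The other 4 genes of the chromosome 5 cluster moved less. SAUR21, the most counted of the 6, had 2.69 and 2.06 CPM in Dex-grown DIF-OX2, against 10.6 and 8.24 CPM in Dex-grown Col-0, a log2 fold change of −2.0 (SE 0.341). SAUR20 had 2.05 and 1.52 CPM, against 8.63 and 5.18 CPM (−1.97, SE 0.472). SAUR24 had 1.29 and 1.76 CPM, against 6.83 and 4.63 CPM (−1.86, SE 0.484). SAUR19, whose stabilised protein is known to enlarge cells when overexpressed, had 0.646 and 0.971 CPM, against 2.75 and 1.43 CPM (−1.28, SE 0.549), and was not called. Its Dex-grown Col-0 libraries had the widest spread relative to their mean of the 6 genes.

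On chromosome 4 the levels of SAUR14 and SAUR16 stayed higher, while that of SAUR15 lay among those of chromosome 5. SAUR14 had 21.3 and 22.5 CPM in Dex-grown DIF-OX2, against 39.8 and 35.7 CPM in Dex-grown Col-0 (log2 fold change −0.78, SE 0.243), and was not called. SAUR16 had 25.5 and 17.1 CPM, against 53.3 and 35 CPM (−1.06, SE 0.272). SAUR15 had 2.48 and 1.88 CPM, against 4.74 and 3.88 CPM (−1.0, SE 0.282). For each of the 3 genes, the higher library of Dex-grown DIF-OX2 lay below the lower library of Dex-grown Col-0.

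**Figure D1:**
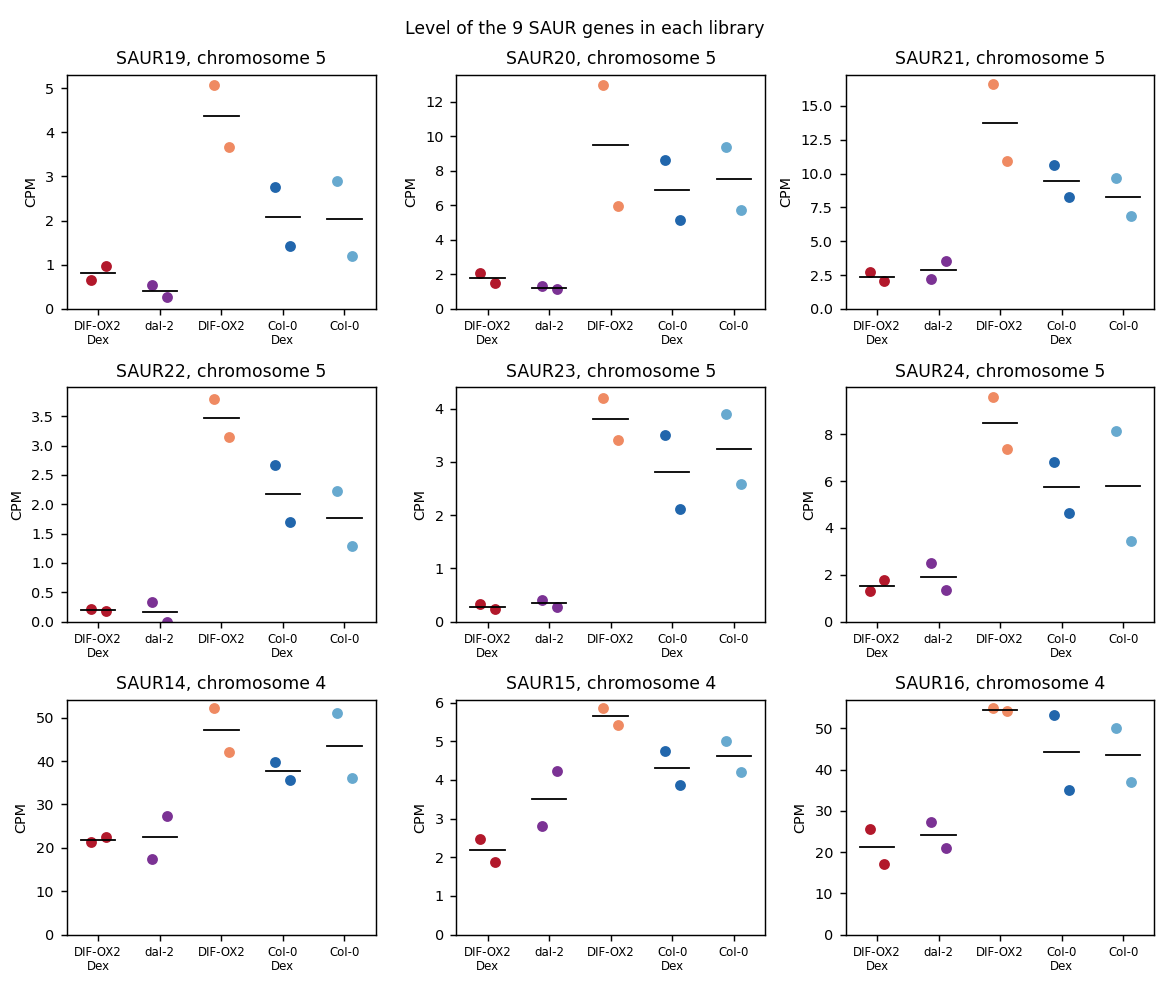
CPM of each of the 9 SAUR genes in each of the 10 libraries; dots are libraries, the left dot of a group is replicate 1, lines are means of 2, and each panel has its own axis from 0. SAUR22 stands at 0.215 and 0.182 CPM in Dex-grown DIF-OX2 and at 2.66 and 1.70 CPM in Dex-grown Col-0, and SAUR15 is the gene whose dal-2 dots overlap those of Col-0.

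In dal-2, with its older plants, all 9 log2 fold changes against Col-0 were below 0 and 8 of the 9 genes did not overlap with Col-0, SAUR15 being the exception. Over all tested genes 31.9% were lower without overlap. The median log2 fold change was −1.60, with −2.46 on chromosome 5 and −0.85 on chromosome 4, against 0.03 over all genes. The test called 8 of 9 lower, against 18% of all genes called lower and 15.9% called higher. With 1 of these 4 libraries left out in turn, the median of the 9 genes was −2.11 to −1.21. Without either replicate of Col-0 fewer of the 9 and fewer of all genes were called. Without replicate 2 of dal-2 fewer of the 9 but more of all genes were called. Without its replicate 1 the count of 8 stayed. With only these 4 libraries in the fit 2 of the 9 were called, and calls over all genes went from 7011 to 2258.

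SAUR22 had 0.341 CPM (5 counts) and no count in dal-2, against 2.23 and 1.29 CPM in Col-0 (20 and 12 counts). The library without a count allows up to 0.167 CPM, which 3 counts would give, and this covers counting error only. SAUR23 had 0.409 and 0.278 CPM in dal-2, against 3.90 and 2.59 CPM in Col-0. Their log2 fold changes were −3.42 (SE 0.801) and −3.22 (SE 0.431). As in Dex-grown DIF-OX2, this divergent pair had the lowest values of the cluster relative to Col-0.

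SAUR20 had 1.30 and 1.17 CPM in dal-2, against 9.36 and 5.72 CPM in Col-0 (log2 fold change −2.61, SE 0.480). SAUR19 had 0.546 and 0.278 CPM, against 2.90 and 1.19 CPM (−2.31, SE 0.606). For both of these genes the log2 fold change was further from 0 than in Dex-grown DIF-OX2 against Dex-grown Col-0. For SAUR21 and SAUR24 it was nearer to 0. SAUR21 had 2.18 and 3.5 CPM, against 9.69 and 6.90 CPM (−1.53, SE 0.329). SAUR24 had 2.52 and 1.33 CPM, against 8.13 and 3.45 CPM (−1.60, SE 0.468). The difference between the 2 contrasts was not tested.

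SAUR14 had 17.4 and 27.4 CPM in dal-2, against 51.0 and 36.0 CPM in Col-0 (log2 fold change −0.96, SE 0.242). SAUR16 had 27.4 and 20.9 CPM, against 50.1 and 37.0 CPM (−0.85, SE 0.270). SAUR15 had 2.80 and 4.22 CPM, against 5.01 and 4.21 CPM (−0.38, SE 0.267), and its dal-2 replicate 2 lay just above the lower Col-0 library.

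Organ and time-of-day markers moved as well, and their part in these results was not tested. The summed level of 6 leaf photosynthesis markers was 22540 and 15549 CPM in Dex-grown DIF-OX2 and 1493 and 6997 CPM in dal-2, against 44125 to 49200 CPM in the other 6 libraries. In dal-2 6 of 6 were called lower. In Dex-grown DIF-OX2 all 6 were lower without overlap (median log2 fold change −1.32), as were 34.1% of all tested genes. Only 1 of them, LHCB1.2, was called there, and its call ended under several alternative fits. Over all genes 10.4% and 18% were called lower and 11.6% and 15.9% higher in Dex-grown DIF-OX2 and dal-2. The 12 root markers summed to 2521 and 2871 CPM in Dex-grown DIF-OX2 and 4753 and 5232 CPM in dal-2, against 2162 to 2451 CPM in the others, and PYK10, a root beta-glucosidase gene, made up most of each sum. The other 11 summed to 206 and 326 CPM in Dex-grown DIF-OX2 and 140 and 94.5 CPM in dal-2, against 219 and 224 in DIF-OX2, 270 and 282 in Dex-grown Col-0, and 395 and 279 in Col-0. In Dex-grown DIF-OX2 1 of the 12 fell and 0 rose. In dal-2 6 fell and 1, PYK10, rose (1.30, SE 0.200; edgeR adjusted p = 0.00231). The PYK10 call ended under 1 of 10 alternative fits. The 6 meristem and mitosis markers summed to 133 and 107 CPM in Dex-grown DIF-OX2 and 141 and 84.2 CPM in dal-2, against 147 to 168 CPM elsewhere. None of these 6 was called in Dex-grown DIF-OX2. In dal-2 STM (1.69) and CYCB1;1 (1.64) rose and KNOLLE (−1.47) and CYCB1;2 (−1.65) fell, with edgeR adjusted p of 0.00159, 0.0252, 0.00168 and 0.00151. The call for CYCB1;1 ended without replicate 1 or 2 of Col-0 (edgeR adjusted p = 0.0778 and 0.115).

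The 4 morning clock markers summed to 538 and 401 CPM in Dex-grown DIF-OX2 and 170 and 489 CPM in dal-2, against 942 and 779 CPM in DIF-OX2, 643 and 545 CPM in Dex-grown Col-0, and 896 and 747 CPM in Col-0. The 5 evening markers summed to 116 and 128 CPM in Dex-grown DIF-OX2 and 586 and 87.6 CPM in dal-2, against 43.7 to 57.4 CPM in the others. Of the morning markers 0 were called in Dex-grown DIF-OX2 and 1 rose in dal-2. Of the evening markers 1 and 5 rose in the same groups, against 11.6% and 15.9% of all genes. The call for GI in Dex-grown DIF-OX2 (log2 fold change 1.67, SE 0.48) ended under several alternative fits. So did those for ELF4 (5.86, SE 1.95) and PRR5 (5.46, SE 1.55) in dal-2. The summed chromosome 5 cluster stood at 7.30 and 6.55 CPM in the same dal-2 libraries. Whether time of day bears on its level was not tested. No marker of these lists was at 0 in any group.

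For every gene but SAUR20, Dex within DIF-OX2 gave a larger difference than either contrast above. All 9 genes were lower in Dex-grown DIF-OX2 than in DIF-OX2 without Dex, without overlap, as were 34.2% of all tested genes. The median log2 fold change was −2.43, from −4.09 for SAUR22 (SE 0.745) to −1.1 for SAUR14 (SE 0.243), against 0.01 over all genes. SAUR21 had 2.69 and 2.06 CPM in Dex-grown DIF-OX2, against 16.6 and 10.9 CPM in DIF-OX2 without Dex (−2.56, SE 0.338). SAUR23 had 0.323 and 0.243 CPM, against 4.2 and 3.41 CPM (−3.75, SE 0.456). SAUR20 had 2.05 and 1.52 CPM, against 13.0 and 5.95 CPM (−2.44, SE 0.467), with the untreated libraries far apart. SAUR24 had 1.29 and 1.76 CPM, against 9.58 and 7.35 CPM (−2.43, SE 0.477). On chromosome 4, SAUR14 had 21.3 and 22.5 CPM in Dex-grown DIF-OX2, against 52.3 and 42.1 CPM in DIF-OX2 without Dex, and SAUR15 had 2.48 and 1.88 CPM, against 5.86 and 5.42 CPM (−1.39, SE 0.278). All 9 were called lower, against 11.6% of all genes called lower and 12.7% called higher. As the genes were chosen on these DIF-OX2 libraries, the count is a description. With 1 library of either group left out in turn, the median was −2.61 to −2.12 and fewer of all genes were called. Fewer of the 9 were called too, except without replicate 2 of DIF-OX2 without Dex. This comparison shares its DIF-OX2 Dex libraries with the first.

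Untreated DIF-OX2 seedlings had the highest mean of all 5 groups for each of the 9 genes. SAUR19 had 5.07 and 3.67 CPM in DIF-OX2, against 2.90 and 1.19 CPM in Col-0 (log2 fold change 1.1, SE 0.484). SAUR22 had 3.80 and 3.15 CPM, against 2.23 and 1.29 CPM (0.98, SE 0.559). SAUR16 had 54.9 and 54.1 CPM, against 50.1 and 37.0 CPM (0.32, SE 0.266). All 9 log2 fold changes were above 0, from 0.12 for SAUR14 to 1.1, with a median of 0.33 against −0.00 over all genes, and SAUR19, SAUR21, SAUR22, SAUR15 and SAUR16 did not overlap with Col-0. Of all genes 13.9% were higher without overlap. None of the 9 was called, 1 had an unadjusted p under 0.05 by edgeR, and DESeq2 called 0. Of all genes edgeR called 0.00967% lower (2 genes) and 0% higher.

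Dex on its own left the 9 genes with log2 fold changes of −0.22 to 0.29 in Col-0, median −0.02, and the libraries with and without Dex overlapped for each. SAUR20, for example, had 8.63 and 5.18 CPM in Dex-grown Col-0, against 9.36 and 5.72 CPM in Col-0. edgeR called 0 of 9, with 0 at an unadjusted p under 0.05, and DESeq2 called 0. Over all genes edgeR and DESeq2 called 0 (0% in each direction), with 566 genes at an unadjusted p under 0.05 by edgeR. SEs of 0.239 to 0.580 on the log2 scale mean that changes of this size would not have been detected in single genes.

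The Dex effect in DIF-OX2 minus that in Col-0 was below 0 for all 9 genes, median −2.38 on the log2 scale, from −0.90 for SAUR14 (SE 0.340) to −4.38 for SAUR22 (SE 0.966). SAUR21, SAUR22 and SAUR23 were called, against 2.5% of all genes called lower and 3.83% called higher. This contrast holds the Dex-grown DIF-OX2 libraries on which the genes were chosen, so the count is a description. With any 1 of the 8 libraries left out, the median was −3.01 to −1.92, and fewer of the 9 and fewer of all genes were called. Without both dal-2 libraries in the fit all 9 were called, and DESeq2 called 6. Calls over all genes rose as well, from 1309 to 3681 without dal-2 and to 2046 by DESeq2.

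**Figure D2:**
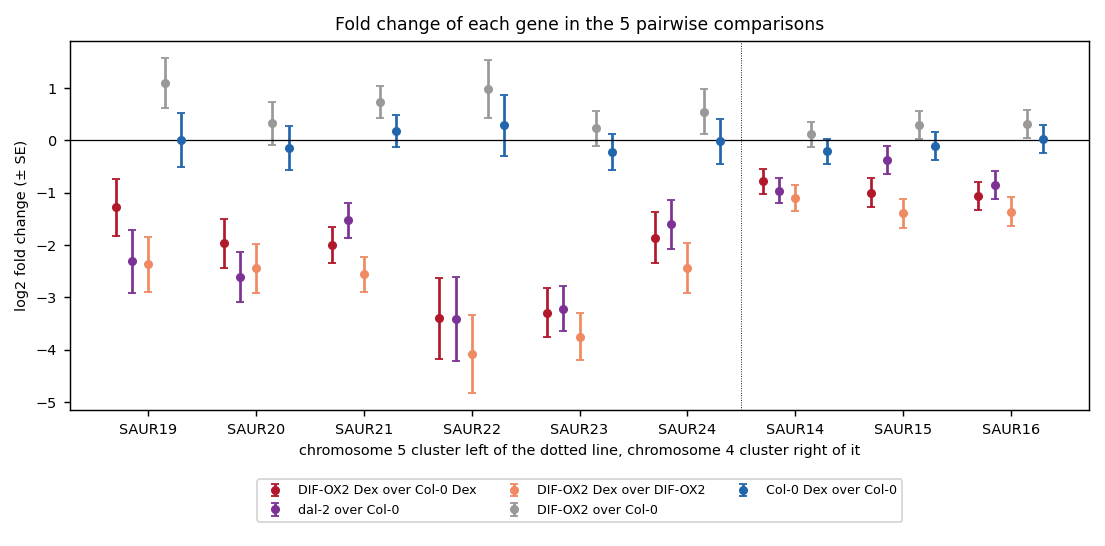
Log2 fold change with SE of each gene in the 5 pairwise comparisons (first-named over second-named group, edgeR fit over 10 libraries). The 3 comparisons with Dex-grown DIF-OX2 or dal-2 on top lie below 0 for all 9 genes, lowest for SAUR22 and SAUR23, while Col-0 Dex over Col-0 lies between −0.22 and 0.29.

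Summed over its 6 genes, the chromosome 5 cluster stood at 7.22 and 6.74 CPM in Dex-grown DIF-OX2 and at 7.30 and 6.55 CPM in dal-2. It stood at 52.2 and 34.5 CPM in DIF-OX2 without Dex, 35 and 23.3 in Dex-grown Col-0, and 36.2 and 21.1 in Col-0. The sums do not depend on how the counted reads were split among the near copies. Their log2 fold changes were −2.06 (SE 0.325) for Dex-grown DIF-OX2 against Dex-grown Col-0 and −2.05 (SE 0.322) for dal-2 against Col-0. The chromosome 4 sum was 49.3 and 41.5 CPM in Dex-grown DIF-OX2, 47.6 and 52.5 in dal-2, 113 and 102 in DIF-OX2, 97.9 and 74.6 in Dex-grown Col-0, and 106 and 77.2 in Col-0. Its log2 fold changes were −0.93 (SE 0.198) and −0.87 (SE 0.197).

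Within the chromosome 5 cluster the shares of SAUR22 and SAUR23 were lower in Dex-grown DIF-OX2 and dal-2, on few counts and without a test. SAUR22 had 2 and 3 counts in Dex-grown DIF-OX2 and 5 and 0 in dal-2. SAUR23 had 3 and 4, and 6 and 5. SAUR22 made up 2.84% ± 0.205 of the cluster's counts in Dex-grown DIF-OX2 and 2.34% ± 3.3 in dal-2, against 8.2% ± 1.32 in DIF-OX2, 7.45% ± 0.198 in Dex-grown Col-0 and 6.14% ± 0.0212 in Col-0 (SD, n = 2). SAUR23 made up 4.04% ± 0.622 in Dex-grown DIF-OX2 and 4.92% ± 0.969 in dal-2, against 8.96% ± 1.32, 9.55% ± 0.665 and 11.5% ± 0.99 in the same 3 groups. SAUR21 had the largest mean share in every group, 29.7% to 41.6%. Shares of SAUR19, SAUR20 and SAUR24 overlapped between Dex-grown DIF-OX2 and at least 1 of the other groups.

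**Figure D3:**
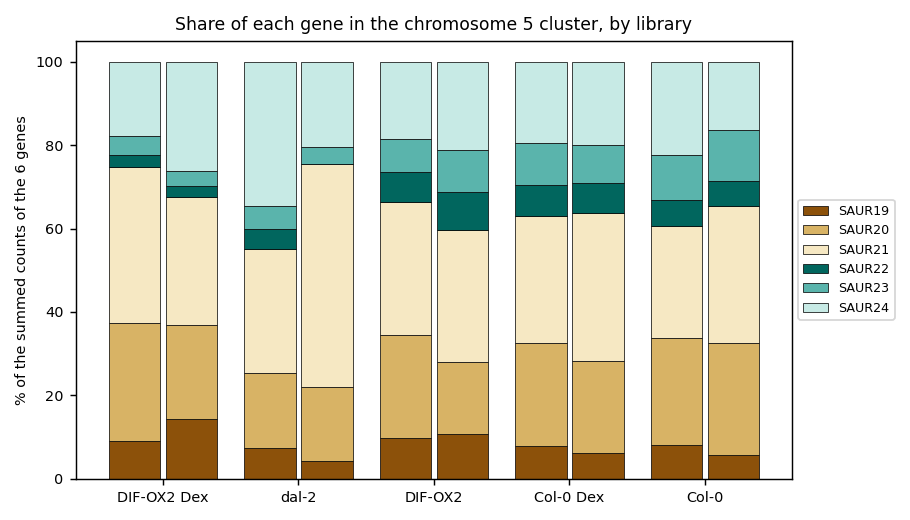
Share of each gene in the summed counts of the chromosome 5 cluster, 1 bar per library, replicate 1 left of replicate 2. SAUR22 and SAUR23 take thinner bands in Dex-grown DIF-OX2 (means 2.84% and 4.04%) and in dal-2 (2.34% and 4.92%) than in Col-0 (6.14% and 11.5%), and SAUR22 is missing from dal-2 replicate 2.

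Per kilobase of exon, SAUR14 stood highest of the 9 in every group and SAUR16 after it, with 37.7 ± 1.46 and 20.3 ± 5.67 CPM per kb in Dex-grown DIF-OX2, against 64.9 ± 5.05 and 42.1 ± 12.3 in Dex-grown Col-0 (SD, n = 2). In the mean over all libraries only SAUR78 ranked above them among the 54 SAUR genes fitted. SAUR22 was lowest of the 9 in every group, with 0.266 ± 0.0315 CPM per kb in Dex-grown DIF-OX2, against 2.92 ± 0.902 in Dex-grown Col-0. In Col-0 the order below SAUR16 ran SAUR20, SAUR21, SAUR24, SAUR15, SAUR23, SAUR19 and SAUR22. The ranges of mean ± SD overlapped between neighbours among SAUR20, SAUR21, SAUR24 and SAUR15 (15.2 ± 5.20, 9.89 ± 2.35, 9.25 ± 5.29 and 5.96 ± 0.738 CPM per kb) and among SAUR23, SAUR19 and SAUR22 (4.00 ± 1.14, 3.22 ± 1.91 and 2.36 ± 0.884).

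Over the 10 libraries the 15 pairs of chromosome 5 genes had Pearson correlations of 0.888 to 0.974 in log2 CPM, the 3 pairs of chromosome 4 genes 0.838 to 0.873, and the 18 pairs between clusters 0.697 to 0.957. These describe libraries that fall into a low set and a high set, and the pairs share library and depth. Among 16519 other genes averaging 50 counts or more, SAUR64 (r = 0.986) followed the chromosome 5 cluster most closely. AT5G64780, AT2G32970, the telomere-binding gene AT5G59430, SAUR63, the expansin EXPA8, SAUR27 and SAUR68 (AT1G29510) came next, with r down to 0.975. Of 20 other SAUR genes that abundant, 7 were among the top 100. Closest to the chromosome 4 cluster was BEE2 (r = 0.987), a brassinosteroid-induced bHLH gene, and IAA1, an auxin-induced repressor, was among the first 8 (r = 0.971). Its top 100 held 3 other SAUR genes.

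Of 20 genes lying among or beside the SAUR copies, 11 could be tested. In Dex-grown DIF-OX2 against Dex-grown Col-0, AT5G18040, AT5G18065 and the phosphoglucosamine mutase gene DRT101, all inside the chromosome 5 cluster, had log2 fold changes of −0.03 (SE 0.294), 0.51 (SE 0.285) and 0.42 (SE 0.176), with edgeR adjusted p = 0.949, 0.239 and 0.123. AT5G18065 rose in dal-2 (1.42, SE 0.290; edgeR adjusted p = 0.00772). At the edge of that cluster AT5G17980 rose in Dex-grown DIF-OX2 (1.41, SE 0.194; edgeR adjusted p = 0.00242). Over all 11 tested neighbours 2 rose and 1 fell in each of the 2 contrasts. Over all genes 11.6% and 15.9% rose and 10.4% and 18% fell. CRK26, a receptor kinase gene beside SAUR14, had a log2 fold change of 0.77 (SE 0.451; edgeR adjusted p = 0.257). SAUR13, next to CRK26, had too few counts to be tested.

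**Figure D4:**
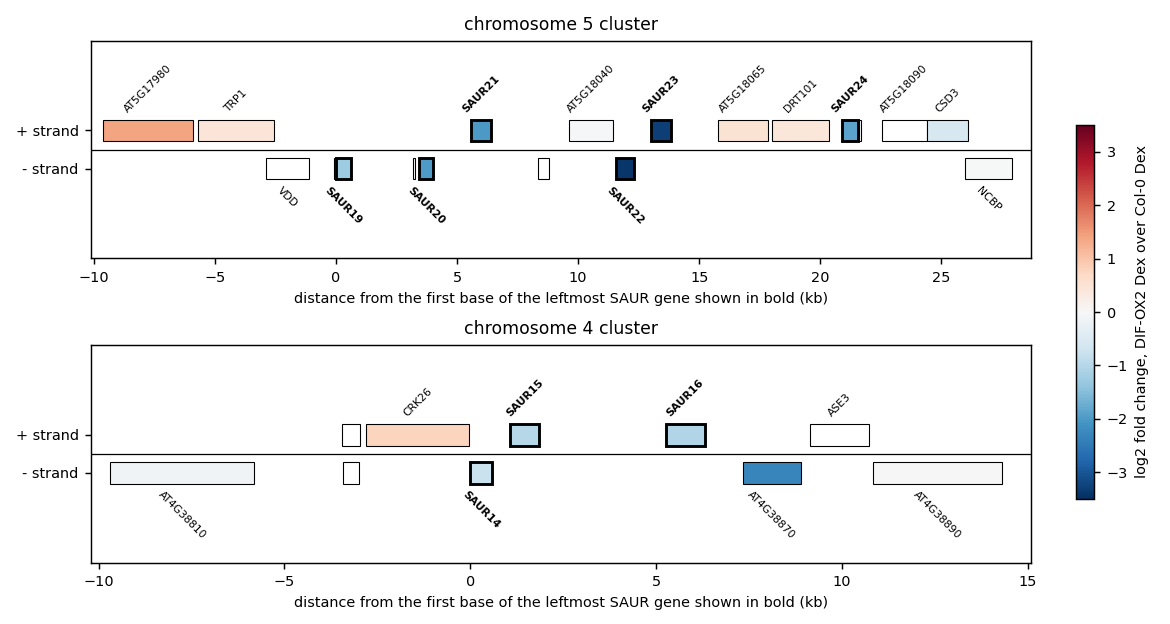
Both clusters drawn to scale, with distance in kb from the leftmost of the 9 genes and strand on the vertical axis; bold names and thick outlines mark the 9 genes, colour gives the log2 fold change of DIF-OX2 Dex over Col-0 Dex, and pure white marks genes with too few counts to be tested. The 9 genes are blue (−3.40 to −0.78), and of the other genes tested AT4G38870 (−2.31, SE 2.32, not called) and CSD3 (−0.58) are the bluest.

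In Dex-grown DIF-OX2 against Dex-grown Col-0, 12 of the 45 other SAUR genes tested fell and 5 rose by edgeR's quasi-likelihood test, with a median log2 fold change of −0.16. These are 26.7% and 11.1% of them, against 10.4% and 11.6% of all genes. In dal-2 against Col-0 18 fell and 5 rose (40% and 11.1%, against 18% and 15.9% of all genes), median −0.81. No library is shared by these contrasts, though both draw their spread from the same fit over 10 libraries. In both, 11 genes fell, 91.7% of the first list and 61.1% of the second. The same overlap over all genes is not given here, so nothing is read from it. Counts of 17 and 23 called genes were 9, 11 and 7 without replicate 1 or 2 of Dex-grown Col-0 or replicate 2 of Dex-grown DIF-OX2, and 12 and 15 without replicate 1 or 2 of Col-0. With only the dal-2 and Col-0 libraries the second count was 10.

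Runs of SAUR genes with gaps of at most 10 kb were then compared, a grouping made with the values known. In the chromosome 1 run of SAUR61 to SAUR65, 4 of 5 genes fell in Dex-grown DIF-OX2 and 4 of 5 in dal-2. On chromosome 3 the run of SAUR26 to SAUR29 had 4 tested genes, of which 3 and 4 fell. Of the 22 tested SAUR genes outside any tandem group, 2 fell and 2 rose in Dex-grown DIF-OX2 and 6 fell and 1 rose in dal-2. Other runs differed. In that of SAUR51 and SAUR52 0 fell and 1 of 2 rose in each contrast. In that of SAUR7 to SAUR12, with 3 tested genes, 0 fell and 1 rose in Dex-grown DIF-OX2, and 1 fell and 1 rose in dal-2. In that of SAUR49 to SAUR5, 1 of 6 fell and 1 rose in Dex-grown DIF-OX2 (median 0.23), and 1 fell and 2 rose in dal-2 (median 0.72). In the run of SAUR66 to SAUR68 both tested genes fell in both contrasts, and SAUR66 (AT1G29500) averaged 2.24 ± 0.94 CPM in Dex-grown DIF-OX2 and 15.7 ± 2.24 CPM in Dex-grown Col-0 (log2 fold change −2.86, SE 0.280; edgeR adjusted p = 5.79e-04). SAUR29 (AT3G03820) averaged 2.96 ± 0.733 CPM in dal-2 and 14.7 ± 2.82 CPM in Col-0 (−2.32, SE 0.235; edgeR adjusted p = 4.17e-04). SAUR63 (AT1G29440) fell in both, by log2 fold changes of −2.10 (SE 0.263; edgeR adjusted p = 0.00165) and −2.63 (SE 0.264; edgeR adjusted p = 4.02e-04).

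SAUR36 (AT2G45210, also SAG201), known for promoting leaf senescence, rose. It averaged 17.7 ± 1.38 CPM in Dex-grown DIF-OX2 and 2.95 ± 1.22 CPM in Dex-grown Col-0 (log2 fold change 2.55, SE 0.362; edgeR adjusted p = 0.00269). In dal-2 it averaged 13.6 ± 5.38 CPM, against 3.67 ± 0.148 CPM in Col-0 (1.89, SE 0.363; edgeR adjusted p = 0.00588). SAUR5 and SAUR12 also rose in both contrasts. SAUR12 did so on a mean count of 9.8, under the 20 set for naming, and the SAUR5 calls did not hold in every alternative fit. The difference between the Dex effects passed the test for 11 of the 45 genes, 10 lower and 1 higher. These are 22.2% and 2.22% of them, against 2.5% and 3.83% of all genes. Fewer of the 45 were called with any 1 of the 8 libraries left out. SAUR66 (−2.93, SE 0.366; edgeR adjusted p = 0.0067) and SAUR29 (−2.49; edgeR adjusted p = 0.00722) kept their calls with each library left out, and each of the other 9 lost its call without at least 1 of them. In Dex-grown Col-0 against Col-0, and in DIF-OX2 against Col-0 without Dex, edgeR and DESeq2 called 0 of 45, with 2 and 0 at an unadjusted p under 0.05 by edgeR.

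The 10 tested SAUR genes closest to a chromosome 5 member (57.3% to 80.2% identical) had a median log2 fold change of −0.76 in Dex-grown DIF-OX2, with 4 falls and 0 rises, against −0.11 for the other 35, with 8 falls and 5 rises. SAUR66, SAUR63 and SAUR29, which fell, were 46.7%, 45.1% and 77.7% identical to their closest chromosome 5 member. In dal-2 against Col-0 the closest 10 had 6 falls and 1 rise (median −1.36), and the other 35 had 12 and 4 (−0.71). Over all genes 10.4% and 18% were called lower and 11.6% and 15.9% higher in Dex-grown DIF-OX2 and dal-2. The cut at 10 genes fell just above SAUR5 and SAUR12 (57.1% each), which rose in Dex-grown DIF-OX2 (2.22 and 1.81). No test was made of this split.

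**Figure D5:**
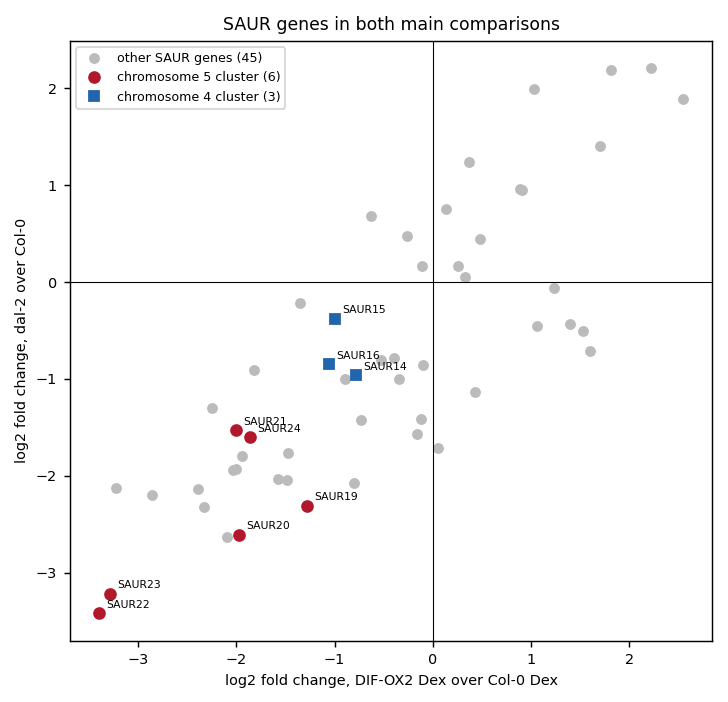
Log2 fold change of each of the 54 fitted SAUR genes in DIF-OX2 Dex over Col-0 Dex (horizontal) and in dal-2 over Col-0 (vertical); grey dots are the 45 other SAUR genes, red dots the chromosome 5 cluster, blue squares the chromosome 4 cluster. SAUR22 (−3.40 and −3.42) and SAUR23 (−3.29 and −3.22) lie at the lower left corner, and several other SAUR genes lie above 0 on both axes.

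Lists of growth genes around the SAUR proteins were then counted, 81 genes in 6 lists, of which 79 could be tested. The lists were chosen with earlier results of these data known, so their shares are a description. In Dex-grown DIF-OX2 against Dex-grown Col-0 21 fell and 7 rose, 26.6% and 8.86% of them, against 10.4% and 11.6% of all genes. In dal-2 against Col-0 26 fell and 6 rose, 32.9% and 7.59%, against 18% and 15.9% of all genes. The 28 called genes of the first contrast were 12, 12 and 6 without replicate 1 or 2 of Dex-grown Col-0 or replicate 2 of Dex-grown DIF-OX2, and 46 with only its 4 libraries in the fit. The 32 of the second were 16 without replicate 2 of Col-0 and 11 with only its 4 libraries. In Dex-grown Col-0 against Col-0 and in DIF-OX2 against Col-0 without Dex, edgeR and DESeq2 called 0 of 79, with 4 and 0 at an unadjusted p under 0.05 by edgeR.

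Auxin response genes fell with the SAUR genes: 10 of 16 fell and 0 rose in Dex-grown DIF-OX2 (median log2 fold change −1.0). In dal-2 8 fell and 0 rose (−0.88). The falls were 62.5% and 50% of the list, against 10.4% and 18% of all genes. IAA3 (AT1G04240), an auxin-induced repressor of ARF factors, averaged 23.3 ± 5.33 CPM in Dex-grown DIF-OX2 and 95.8 ± 14.8 CPM in Dex-grown Col-0 (log2 fold change −2.05, SE 0.247; edgeR adjusted p = 0.00142). In dal-2 it averaged 27.1 ± 3.03 CPM, against 125 ± 27.8 CPM in Col-0 (−2.21, SE 0.246; edgeR adjusted p = 6.08e-04). Of 7 genes of auxin perception 0 were called in Dex-grown DIF-OX2, and 1 fell and 1 rose in dal-2. There the receptor gene AFB3 had a log2 fold change of −0.97 and the factor gene ARF6 one of 0.89. Each call is 14.3% of the list, against 18% of all genes called lower and 15.9% called higher in dal-2. AFB3's call ended without replicate 1 of Col-0, and that of ARF6 under 1 of 10 alternative fits. In Dex-grown DIF-OX2 the receptor gene TIR1 had a log2 fold change of −0.63 (SE 0.203; edgeR adjusted p = 0.0588).

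Of 9 tested auxin synthesis genes, 1 fell and 2 rose in Dex-grown DIF-OX2, and 2 fell and 2 rose in dal-2. The falls were 11.1% and 22.2% of the list and the rises 22.2% in both, against 10.4% and 18% and against 11.6% and 15.9% of all genes. TAR2 (AT4G24670), an aminotransferase of the tryptophan to auxin route, averaged 10.1 ± 0.573 CPM in Dex-grown DIF-OX2 and 17.8 ± 1.19 CPM in Dex-grown Col-0 (log2 fold change −0.82, SE 0.137; edgeR adjusted p = 0.0051). It averaged 5.69 ± 0.428 CPM in dal-2 and 16.7 ± 1.40 CPM in Col-0 (−1.55, SE 0.142; edgeR adjusted p = 2.89e-04). YUC3, of the next step, averaged 0.282 ± 0.0842 CPM in dal-2 and 3.08 ± 1.00 CPM in Col-0 (−3.43, SE 0.380; edgeR adjusted p = 6e-04). TAA1, which acts at the same step as TAR2, averaged 22.7 ± 4.72 CPM in dal-2 and 11.1 ± 3.82 CPM in Col-0 (1.03, SE 0.275; edgeR adjusted p = 0.0224), and YUC2 rose as well (1.26, SE 0.420; edgeR adjusted p = 0.0489). In Dex-grown DIF-OX2 the rises were those of YUC4 (2.12, SE 0.560; edgeR adjusted p = 0.0294) and YUC9 (1.47, SE 0.390; edgeR adjusted p = 0.0296). These 4 rises were not stable. The calls for TAA1 and YUC2 ended without replicate 2 of Col-0 (edgeR adjusted p = 0.102 and 0.138), that for TAA1 also without replicate 1 of dal-2 (0.0605), and that for YUC2 also without replicate 2 of dal-2 (0.102). Those for YUC4 and YUC9 ended without either replicate of Dex-grown Col-0 or replicate 2 of Dex-grown DIF-OX2, and that for YUC4 also without its replicate 1 (edgeR adjusted p of 0.0712 to 0.26).

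Of 18 growth regulators, among them promoters and repressors of growth, 7 fell in Dex-grown DIF-OX2 and 8 fell in dal-2, and none rose. The falls were 38.9% and 44.4% of the list, against 10.4% and 18% of all genes. The repressors GAI and RGA (DELLA proteins) and HY5 (light signalling) account for 1 of the 7, GAI (−1.09; edgeR adjusted p = 0.0119), and for 2 of the 8, GAI (−0.94; edgeR adjusted p = 0.0144) and RGA (−0.47; edgeR adjusted p = 0.0359). Of the 15 others, in the main PIF, brassinosteroid and PRE genes, 6 fell in each contrast. PIF4 (AT2G43010), a bHLH factor that binds promoters of growth genes, averaged 36.7 ± 12.3 CPM in Dex-grown DIF-OX2 and 147 ± 20.7 CPM in Dex-grown Col-0 (log2 fold change −2.01, SE 0.256; edgeR adjusted p = 0.00177). In dal-2 it averaged 57.0 ± 3.48 CPM, against 143 ± 29.8 CPM in Col-0 (−1.32, SE 0.250; edgeR adjusted p = 0.00553). Dex within DIF-OX2 lowered 11 of the 18 (61.1%, against 11.6% of all genes), 9 of them outside GAI, RGA and HY5. In Dex-grown DIF-OX2 against Dex-grown Col-0 and in dal-2 against Col-0 the calls for PIF4 and IAA3 held with each library left out.

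Of 12 pump and phosphatase genes, on whose products SAUR proteins act, 0 fell and 3 rose in Dex-grown DIF-OX2. In dal-2 2 fell and 0 rose. The falls were 0% and 16.7% of the list, against 10.4% and 18% of all genes. The rises were 25% and 0%, against 11.6% and 15.9%. AHA1, a major H+-ATPase gene, averaged 1112 ± 49.4 CPM in Dex-grown DIF-OX2 and 643 ± 10.3 CPM in Dex-grown Col-0 (log2 fold change 0.79, SE 0.175; edgeR adjusted p = 0.0153), and this call ended without replicate 1 or 2 of Dex-grown Col-0 (adjusted p = 0.103 and 0.0911) or replicate 2 of Dex-grown DIF-OX2 (0.0949). AHA3 fell in dal-2 (−0.85, SE 0.143; edgeR adjusted p = 0.00336), a call that ended with only the dal-2 and Col-0 libraries in the fit (edgeR adjusted p = 0.0627). Of 17 wall-loosening genes 3 fell and 2 rose in Dex-grown DIF-OX2, and 5 fell and 3 rose in dal-2. The falls were 17.6% and 29.4% of the list, against 10.4% and 18% of all genes, and the rises 11.8% and 17.6%, against 11.6% and 15.9%. XTH19, a xyloglucan endotransglucosylase gene, averaged 121 ± 16.1 CPM in Dex-grown DIF-OX2 and 20.2 ± 0.214 CPM in Dex-grown Col-0 (2.57, SE 0.383; edgeR adjusted p = 0.00324). EXPA8 averaged 14.7 ± 5.86 CPM in Dex-grown DIF-OX2 and 74.1 ± 30.2 CPM in Dex-grown Col-0 (−2.35, SE 0.553; edgeR adjusted p = 0.0192), a call that ended without replicate 1 of Dex-grown Col-0 (adjusted p = 0.106) or replicate 2 of Dex-grown DIF-OX2 (0.159).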

How the data were processed

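Raw counts per gene were deposited by the authors for 10 libraries. Per the submitters' processing notes, Trimmomatic, TopHat2 and HTSeq were used with TAIR10; versions, the strand setting and the handling of reads with several alignments are not given in the sources used here. Counts of near copies and of overlapping genes are therefore uncertain. From the deposited counts, CPM and log2 fold changes were computed with edgeR 4.0.16 in R 4.3.3 (TMM, filterByExpr, quasi-likelihood test, 5 group coefficients, Benjamini-Hochberg over 20681 genes, threshold 0.05), tested on simulated data. Each comparison drew its spread from all 10 libraries. Alternatives were DESeq2 1.42.0, other scalings, no filter, other sample sets, a replicate block, summed clusters and each library left out, where the spread of a lone library is taken from the other groups. Gene names and sequences are from RefSeq (TAIR10.1), which matched 32835 of 33602 loci.

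The 9 genes and all lists were chosen with earlier results of these data known. Named were, besides the 9 and their neighbours, up to 4 rises and 4 falls of other SAUR genes per comparison with a mean count of at least 20, up to 2 of each per growth list, and the genes most alike; the text gives a part of these, favouring calls that held across settings. AT5G01830, which RefSeq also calls SAUR21, was left out because its product is an ARM repeat protein.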

Additional observations from a re-analysis of the deposited data

Results flagged for a closer look

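The effect of Dex in DIF-OX2 differed from that in Col-0 by edgeR's interaction test for 24 genes besides the 9, among all SAUR, growth list, neighbouring and most alike genes, with 21 lower and 3 higher. Over all tested genes 2.5% were called lower and 3.83% higher. Of these 24 calls 2 were kept with each of the 8 libraries left out in turn, SAUR66 (−2.93 on the log2 scale) and SAUR29 (−2.49), and 22 were lost without at least 1 library. Among other SAUR genes those lost were SAUR28 (−2.89), SAUR68 (AT1G29510; −2.68), SAUR27 (−2.51), SAUR65 (−2.41), SAUR64 (−2.37), SAUR63 (−2.27), SAUR62 (−1.73), SAUR50 (−1.39) and SAUR36 (2.80). In the growth lists they were PIF4 (−2.07), IAA3 (−1.94), IAA1 (−1.89), HBI1 (−1.81), IAA4 (−1.16), TAR2 (−0.88), IAA7 (−0.85) and XTH19 (2.40). The others were the neighbour AT5G17980 (1.62), BEE2 (−1.81), DRB3 (−1.64), the telomere-binding gene AT5G59430 (−1.39) and ELI3-1 (−1.33). BEE2, DRB3, AT5G59430 and ELI3-1 were picked because they follow the 9 genes over these libraries, so their calls are a description too. SAUR22 (−4.38), SAUR23 (−3.53) and SAUR21 (−2.74) are given as a description, since they were chosen with these values known.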

How the results depend on the processing

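No called result changed direction under an alternative. The median of the 9 genes for Dex in Col-0 lay near 0 (−0.02) and changed sign in the ranges given here. With only the libraries of the comparison in the fit, growth list genes called were 46 in place of 28 for Dex-grown DIF-OX2 against Dex-grown Col-0 and 11 in place of 32 for dal-2 against Col-0, and other SAUR genes called in dal-2 were 10 in place of 23. For the difference between Dex effects, growth list genes called were 8, against 30 with only its libraries, 30 without both dal-2 libraries, 17 by DESeq2 and 15 with the replicate block. Over all genes these calls were 1309, against 3681, 3681, 2046 and 1525 in the same order. Over all genes, 4549 calls for Dex-grown DIF-OX2 became 6892 with only its libraries and 7065 without dal-2, and 7011 for dal-2 became 2258. With each cluster summed, the midpoints of the 2 sums, which weight the clusters equally in place of 6 genes and 3, were −1.49, −1.94 and −1.91 for Dex-grown DIF-OX2 against Dex-grown Col-0, Dex in DIF-OX2 and the difference between Dex effects. The cause of the moved counts was not tested.

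With each library left out, medians of the 9 genes were −2.12 to −1.58 (Dex-grown DIF-OX2 against Dex-grown Col-0), −2.11 to −1.21 (dal-2), −2.61 to −2.12 (Dex in DIF-OX2), −0.42 to 0.27 (Dex in Col-0), 0.13 to 0.74 (DIF-OX2 against Col-0) and −3.01 to −1.92 (difference between Dex effects). Other SAUR genes called were 7 to 12, 12 to 26, 12 to 15, 0, 0 and 2 to 9 in the same order, and growth list genes 6 to 19, 16 to 35, 8 to 25, 0, 0 and 0 to 7. Upper quartile scaling moved the median of all genes in dal-2 to 0.16, and of the 9 genes to −1.47. The labels say nothing of what a replicate number shares. Deviations of same-numbered libraries correlated at 0.281 to 0.458 among Col-0, Dex-grown Col-0 and DIF-OX2, where replicate 1 was above replicate 2 in both cluster sums, and at −0.105 to 0.124 in pairs with Dex-grown DIF-OX2 or dal-2, so the numbers were not taken to pair all groups. The replicate block gave 17, 22 and 19 other SAUR and 29, 34 and 36 growth list calls in the first 3 comparisons. It moved calls among the 9 genes for the difference between Dex effects from 3 to 6, and those over all genes from 1309 to 1525.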
